A study of Mus musculus with 4 samples.

Results

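The genes of fibroblast growth factor (FGF) signalling were compared between sorted cells of molar pulp and sorted cells of incisor pulp of the mouse. Pulp is the soft tissue inside the tooth. The genes were chosen by symbol, though with earlier results of these data known. They are 22 Fgf genes, the 4 receptor genes Fgfr1 to Fgfr4 and the receptor-like gene Fgfrl1. The others are 4 Sprouty genes, 3 Spred genes and the transcription factor genes Etv4 and Etv5. That makes 36 of the 24216 rows in the authors' deposited table, and each of the 36 had a row of its own.

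Both groups came from XLacZ4 mice, a reporter strain in which beta-galactosidase marks pericytes and vascular smooth muscle cells, together called mural cells. Molars and incisors gave 2 libraries each, from cells sorted for cleavage of FDG, a substrate that fluoresces once beta-galactosidase cuts it. The labels give no age, no number of animals and no treatment, and they do not say whether teeth were pooled or whether the libraries of a tissue are separate animals. Molars are also named in the isolation text given for the incisor libraries. The table holds 1 FPKM value per tissue (fragments per kilobase of transcript, scaled to sequencing depth), so no value below has a replicate error and the depth behind it is unknown. The p and q values printed are the authors', and they may measure only technical spread between libraries. Tooth, sorting and library preparation changed together and cannot be told apart. In a bulk library, fewer cells of a type and less RNA per cell cannot be told apart either.

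FGFs are signalling proteins, most of which leave the cell, bind heparan sulfate and activate receptor tyrosine kinases on the same or neighbouring cells. The receptors act through RAS and MAP kinases, which switch on the ETS factors Etv4 and Etv5 and also the Sprouty and Spred proteins, which damp the same route. In the mouse incisor, which erupts throughout life, FGFs pass between the pulp mesenchyme and the epithelium of the cervical loop and help to keep the epithelial stem cells there, while molars complete their crowns and stop. In developing teeth Fgf4, Fgf8, Fgf9 and Fgf20 are known from the epithelium and Fgf3, Fgf7 and Fgf10 from the mesenchyme.

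Differences are called where the q value in the authors' deposited table is under 0.05. Molar had the higher level in 11.9% of all 18770 tested genes by this rule, and incisor in 4.28%. Of the 36 FGF genes 33 were tested, and the other 3, Fgf6, Fgf8 and Fgf22, were marked as not tested. Called higher in molar were 3 of the 33 (9.09%), Fgf4, Fgf12 and Fgf13, and called higher in incisor was 1 (3.03%), Fgf21. Both shares lie near those of all tested genes, so the number of calls does not set the FGF genes apart. At an unadjusted p under 0.05 the counts were 4 and 3, against 17.9% and 9.06% of all tested genes, the added genes being Fgf3, Fgfr2 and Spry2. The remaining 29 tested FGF genes had q values above the threshold, which does not show that the tissues had equal levels.

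Over the 24 FGF genes at 1 FPKM or more in either tissue, the median of log2((molar + 1) / (incisor + 1)) was -0.12, beside 0.14 over the 13198 tested genes that met the same minimum. On this scale, a pseudocount of 1 shrinks the differences of low genes. The sign of the FGF median depended on the minimum, since over all 36 genes it was 0.15. In the 22 Fgf genes taken alone the value was larger in molar for 14 and in incisor for 6, and in the 14 receptor, inhibitor and ETS genes it was larger in molar for 5 and in incisor for 9. Among all tested genes 11515 had the larger value in molar and 7255 in incisor.

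**Figure D1:**
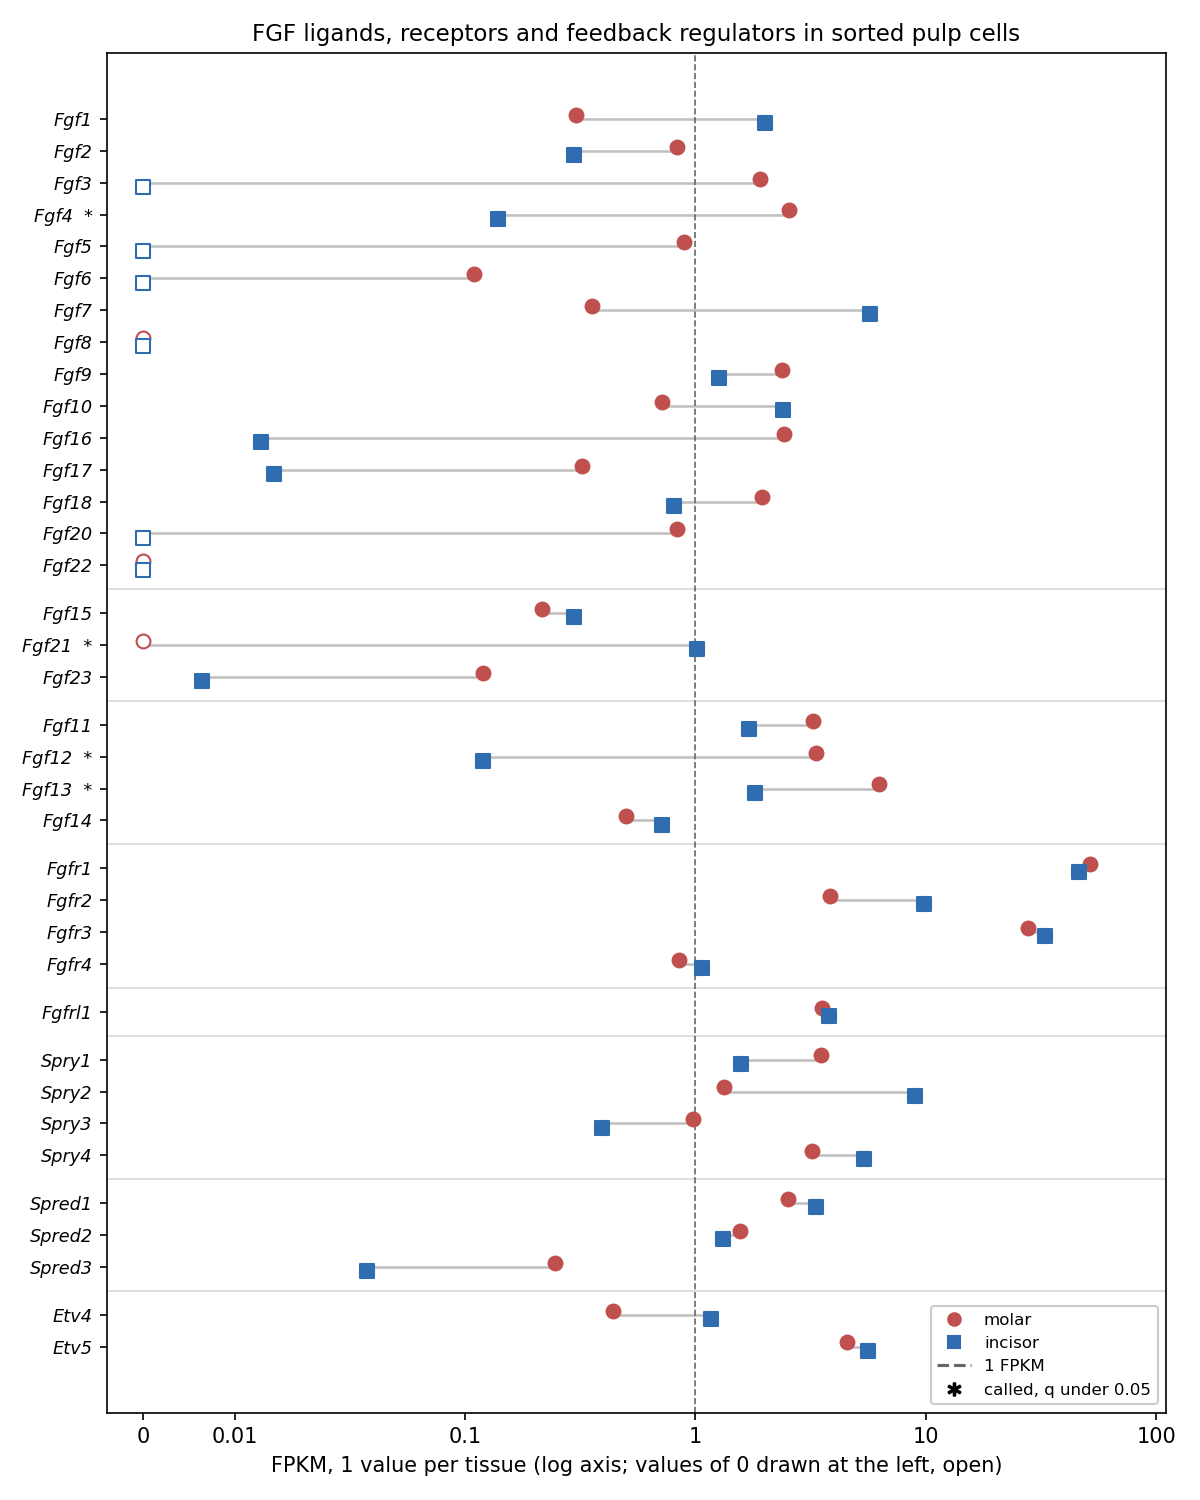
FPKM of each of the 36 genes in molar (circles) and incisor (squares) on a log axis, ordered by role, with values of 0 drawn open at the left edge, a dashed line at 1 FPKM and an asterisk on the 4 called genes. Fgfr1 and Fgfr3 stand far to the right in both tissues, at 27.8 to 51.4 FPKM, and no Fgf gene exceeds 6.27 FPKM.

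The 4 called genes differ in kind. Fgf4 (chromosome 7, 144861386 to 144865243, mm10), a paracrine ligand known from the enamel knots of developing teeth, stood at 2.56 FPKM in molar and 0.139 FPKM in incisor, a log2 fold change of 4.20 with q = 0.00176 in the authors' deposited table. Fgf21 (chromosome 7, 45613890 to 45615490), an endocrine FGF best known as a stress hormone of the liver, was listed at 0 in molar and reached 1.02 FPKM in incisor. The authors' deposited table gives it q = 0.000664, and no fold is given against a 0. Fgf12 and Fgf13 are intracellular proteins and are described with their relatives below.

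The promoter sequences of Fgf4 and Fgf21 are printed because they belong to the only secreted FGFs that were called, in opposite directions. Each window runs from 250 bases before to 50 bases after the start site, 5′ to 3′ on the strand of the gene, from RefSeq on GRCm38.p6, the assembly that mm10 denotes. The Fgf4 window is chr7:144861136-144861435 on the plus strand and the Fgf21 window is chr7:45615441-45615740 on the minus strand. Capitals mark every match, on either strand, to 5 motifs. TATAAA is one form of the TATA box and TATATA is another, CCGGAA is an ETS core, TGACGTCA is a cAMP response element, and TTGCATCA is a core of the amino acid response elements bound by ATF4.
Fgf4: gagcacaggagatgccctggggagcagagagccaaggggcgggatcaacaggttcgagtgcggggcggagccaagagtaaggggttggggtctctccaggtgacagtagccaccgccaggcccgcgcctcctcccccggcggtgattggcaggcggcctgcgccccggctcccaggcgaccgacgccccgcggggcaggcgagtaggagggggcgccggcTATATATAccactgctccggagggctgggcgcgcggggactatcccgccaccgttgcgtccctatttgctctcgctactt
Fgf21: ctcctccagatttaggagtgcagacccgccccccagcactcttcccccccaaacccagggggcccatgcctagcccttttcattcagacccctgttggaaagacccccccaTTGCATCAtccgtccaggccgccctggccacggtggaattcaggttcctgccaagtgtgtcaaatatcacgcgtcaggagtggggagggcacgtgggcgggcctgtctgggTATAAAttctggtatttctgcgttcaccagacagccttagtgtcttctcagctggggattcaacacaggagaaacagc

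Counted from the start site, the capitals of Fgf4 are 2 overlapping TATATA matches that begin at -30 and -28, and in Fgf21 TATAAA begins at -28. TATAAA was found in 13.6% and TATATA in 5.67% of the 32851 windows of all genes. TTGCATCA begins at -139 in Fgf21 and was found in 0.895% of all windows. Counted per gene, CCGGAA stood in a window of 5 of the 26 FGF genes that had one (Fgf5, Fgf12, Fgfr4, Fgfrl1 and Spry2) and of 16.7% of all 27025 genes, and TGACGTCA in none of the 26 and 2.03% of all. Counted per window, the shares over all genes were 14.9% and 1.79%. The Fgf4 window held 69.7% G and C and the Fgf21 window 58.0%, against a median of 52.7% over all windows. These are matches of letters, and nothing in the data measures binding.

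Counted with a minimum of 1 FPKM, 8 of the 22 Fgf genes passed in molar and 7 in incisor. Only Fgf9, Fgf11 and Fgf13 passed in both, 5 passed in molar alone, 4 in incisor alone, and 10 in neither. In molar these were, from the highest down, Fgf13, Fgf12, Fgf11, Fgf4, Fgf16, Fgf9, Fgf18 and Fgf3, and in incisor Fgf7, Fgf10, Fgf1, Fgf13, Fgf11, Fgf9 and Fgf21. Nearest to the limit lay Fgf3 (1.91 FPKM) above and Fgf5 (0.894 FPKM) below it in molar, and Fgf21 (1.02 FPKM) above and Fgf18 (0.809 FPKM) below it in incisor. Leaving out the 4 intracellular FGFs, 5 of 18 secreted FGFs passed in each tissue and 1, Fgf9, passed in both. For scale, 50.8% of all rows in molar were at or above the level of Spry3 (0.977 FPKM). In incisor 46.6% of all rows were at or above the level of Fgf21 (1.02 FPKM). The overlap between tissues was not counted over all genes, so the small overlap is not shown to be particular to the Fgf genes.

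How much a value near 1 FPKM says differed between the tissues. Genes for olfactory, vomeronasal and taste receptors, which have no known place in pulp and serve here as a measure of low-level signal, had a 99th percentile of 3.78 FPKM in molar and 0.147 FPKM in incisor over 1486 genes. Of them 6.19% exceeded 1 FPKM in molar, against 0.202% in incisor. A listed 0 was the usual value of these genes in incisor (1434 genes) but not in molar (266 genes), with medians of 0 and 0.109 FPKM. Only Fgf13 lay above that percentile in molar, while all 7 Fgf genes over 1 FPKM in incisor did. In molar 31 chemoreceptor genes were at or above the level of Fgf4, 21 at or above that of Fgf12 and 1 at or above that of Fgf13, and in incisor 3 were at or above the level of Fgf21. The authors' deposited table called 20 of 726 tested chemoreceptor genes higher in molar (2.75%) and 2 higher in incisor (0.275%). The molar values of Fgf4, Fgf12, Fgf11, Fgf16, Fgf9, Fgf18 and Fgf3 thus lie below the 99th percentile of the chemoreceptor genes.

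**Figure D2:**
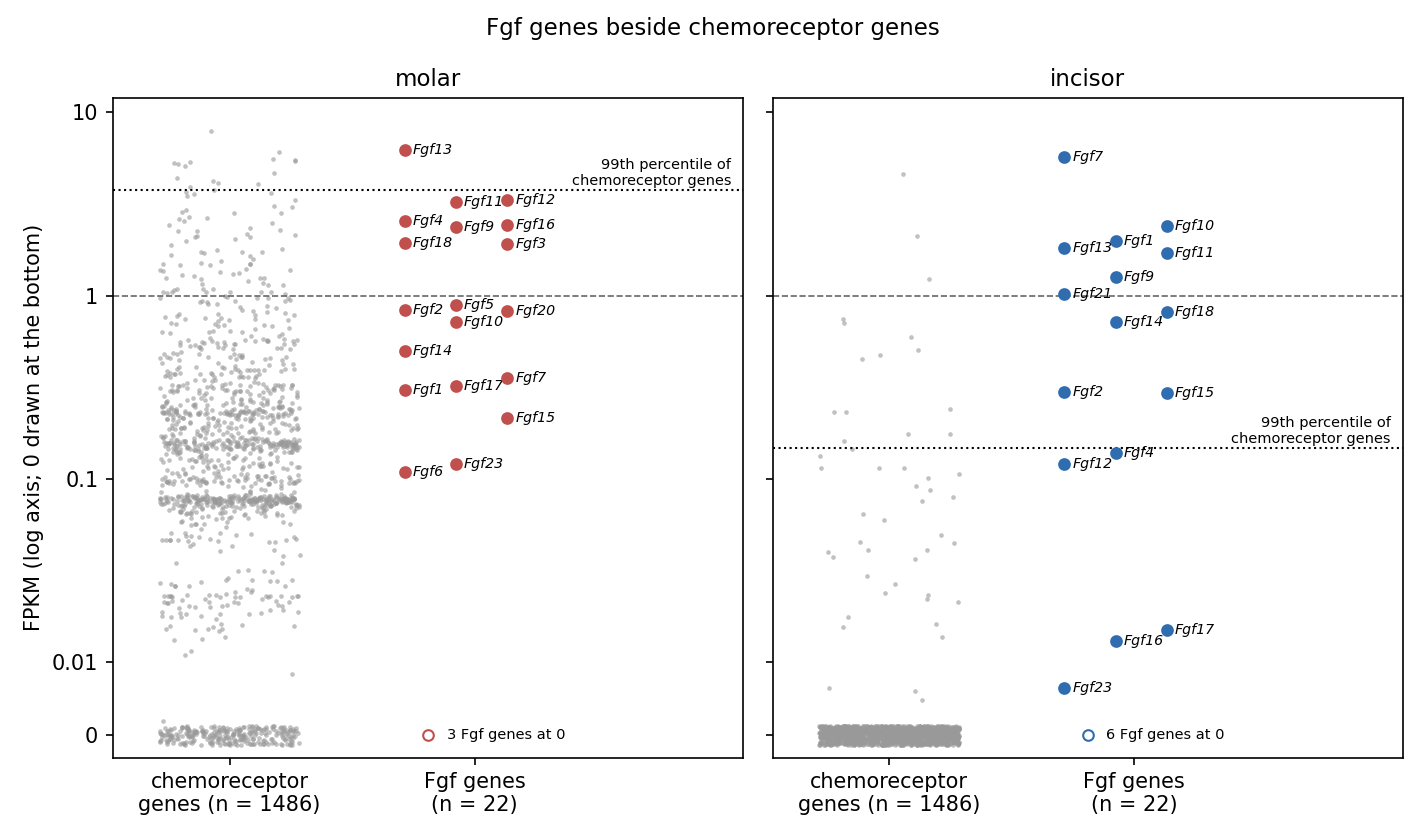
FPKM of 1486 chemoreceptor genes (grey, spread sideways for visibility) and of the 22 Fgf genes (coloured, named) in molar at left and incisor at right, on a log axis with values of 0 at the bottom; dashed lines mark 1 FPKM and dotted lines the 99th percentile of the chemoreceptor genes. That percentile is 3.78 FPKM in molar, with 1 Fgf gene above it, and 0.147 FPKM in incisor, with 11 Fgf genes above it.

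Of the paracrine ligands only Fgf4 was called. Fgf7, which mesenchymal cells make to stimulate epithelium, had 0.356 FPKM in molar and 5.73 FPKM in incisor, the highest value of any Fgf gene there. It was not called (q = 0.252 in the authors' deposited table). Its row covers 292896 bases (chromosome 2, 125859109 to 126152004), while the gene itself spans 56528 bases in GENCODE M21. Fgf10, the mesenchymal ligand that maintains the incisor epithelium in mice, had 0.718 FPKM in molar and 2.40 FPKM in incisor (q = 0.252 in the authors' deposited table). Fgf1, a ligand that binds all FGF receptors, had 0.304 FPKM in molar and 1.995 FPKM in incisor. These 3 genes had the larger value in incisor and none of them passed the test.

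The other paracrine ligands had the larger value in molar or were at or near 0 in both tissues. Fgf16 had 2.42 FPKM in molar and 0.0130 FPKM in incisor, a log2 fold change of 7.54 that was not called (q = 0.252 in the authors' deposited table). Fgf3, a mesenchymal ligand of the tooth germ, had 1.91 FPKM in molar and 0 in incisor (p = 0.0449 and q = 0.172 in the authors' deposited table). Fgf9, an epithelial ligand that signals to mesenchyme, had 2.37 FPKM in molar and 1.27 FPKM in incisor and was the only secreted FGF over 1 FPKM in both. Fgf18, which acts on cartilage and bone cells, had 1.94 FPKM in molar and 0.809 FPKM in incisor.

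Fgf5, an inhibitor of hair growth, had 0.894 FPKM in molar and Fgf20, an ectodysplasin target in the tooth germ, had 0.829 FPKM in molar, and both were listed at 0 in incisor. Fgf2, the classical basic FGF, had 0.832 FPKM in molar and 0.297 FPKM in incisor. The exons of Fgf2 overlap those of Nudt6 on the other strand (5.87 FPKM in molar and 2.31 FPKM in incisor) and those of Fgf20 overlap Micu3 (1.95 FPKM in molar and 7.70 FPKM in incisor), and the sources used here do not say whether strand was used in counting. Fgf17 had 0.323 FPKM in molar and 0.0149 FPKM in incisor. Fgf6 had 0.109 FPKM in molar and a listed 0 in incisor, and Fgf8 and Fgf22 were listed at 0 in both, the row of Fgf22 covering 672333 bases for a gene of 3521. Summed over the 15 paracrine genes, the level was 15.6 FPKM in molar and 12.7 FPKM in incisor. These sums are not scaled to equal FPKM totals, and the totals of all rows were 815089 in molar and 539574 in incisor. The highest paracrine value in molar, 2.56 FPKM, lies below the molar 99th percentile of the chemoreceptor genes, 3.78 FPKM. Which tissue had more paracrine FGF is therefore not settled by the sums.

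Of the endocrine FGFs, which need a Klotho protein as co-receptor, only Fgf21 exceeded 1 FPKM, and only in incisor. Fgf15, the intestinal regulator of bile acid synthesis, had 0.215 FPKM in molar and 0.296 FPKM in incisor, and 23.4% of its transcript words of 32 bases also occur in the antisense gene Gm26793. Fgf23, the bone hormone that lowers blood phosphate, had 0.120 FPKM in molar and 0.00724 FPKM in incisor.

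The intracellular FGFs, also called FGF homologous factors, stay inside the cell, bind voltage-gated sodium channels and do not act as ordinary FGF receptor ligands. They held 2 of the 3 calls toward molar and 0 toward incisor. That is 2 of only 4 genes, beside 11.9% and 4.28% of all tested genes. Fgf13 (chromosome X, 59062146 to 59585572) had 6.27 FPKM in molar and 1.82 FPKM in incisor, a log2 fold change of 1.78 with q = 0.0378 in the authors' deposited table. Fgf12 (chromosome 16, 28157783 to 28753243) had 3.32 FPKM in molar and 0.120 FPKM in incisor, a log2 fold change of 4.79 with q = 0.000664 in the authors' deposited table. Its molar value lies below the 99th percentile of the chemoreceptor genes, and that of Fgf13 above it. Fgf11 had 3.25 FPKM in molar and 1.71 FPKM in incisor, and Fgf14 had 0.499 FPKM in molar and 0.714 FPKM in incisor, neither of them called. The 4 genes summed to 13.3 FPKM in molar and 4.37 FPKM in incisor.

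Fgfr1 and Fgfr3 were the most abundant of the 36 genes in both tissues, and no receptor gene was called. Fgfr1 (chromosome 8, 25518759 to 25575718), the main receptor of mesenchyme, had 51.4 FPKM in molar and 46.0 FPKM in incisor, a log2 fold change of 0.16 with q = 0.612 in the authors' deposited table. Fgfr3 (chromosome 5, 33721724 to 33737068), which restrains the growth of bone and cartilage, had 27.8 FPKM in molar and 32.9 FPKM in incisor. Fgfr1 made up 61.2% of the summed receptor FPKM in molar and 51.2% in incisor, and Fgfr3 33.2% in molar and 36.7% in incisor. Only 7.93% of all rows in molar and 6.41% in incisor were as high as Fgfr1. With molar values scaled to equal FPKM totals, or with the all-gene median set to 0, the sign of the Fgfr1 difference turned.

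Fgfr2 (chromosome 7, 130162451 to 130266808), whose epithelial form is the receptor of Fgf7 and Fgf10, had 3.85 FPKM in molar and 9.81 FPKM in incisor. Its log2 fold change was -1.35 with p = 0.021 and q = 0.101 in the authors' deposited table, so it was not called. It made up 4.58% of the receptor FPKM in molar and 10.9% in incisor. A value per gene cannot split the epithelial from the mesenchymal form. Fgfr4 had 0.846 FPKM in molar and 1.07 FPKM in incisor, and the order Fgfr1, Fgfr3, Fgfr2, Fgfr4 was the same in both tissues, though without replicates the spread around each level is unknown. Fgfrl1, a receptor-like protein without the kinase domain, had 3.53 FPKM in molar and 3.79 FPKM in incisor.

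Sprouty and Spred genes were not called either, and they did not lean one way. Spry2 (chromosome 14, 105891947 to 105896819), an inhibitor of FGF signalling that limits tooth number in mice, had 1.33 FPKM in molar and 9.005 FPKM in incisor, a log2 fold change of -2.76 with p = 0.0227 and q = 0.107 in the authors' deposited table. Spry4, which acts with Spry2 in the tooth, had 3.20 FPKM in molar and 5.36 FPKM in incisor. Spry1, known from kidney and muscle, had 3.50 FPKM in molar and 1.58 FPKM in incisor, and 19.9% of its transcript words of 32 bases also occur in Gm42922 on the other strand. Spry2 stood at 0.381 times the level of Spry1 in molar and at 5.69 times that level in incisor. The molar values of both lie below the molar 99th percentile of the chemoreceptor genes, 3.78 FPKM. In molar 66 chemoreceptor genes were at or above the level of Spry2 and 20 at or above that of Spry1, which limits the molar ratio. Spry3, on an unplaced piece of chromosome X, had 0.977 FPKM in molar and 0.392 FPKM in incisor.

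The Spred proteins hold the RAS brake neurofibromin at the membrane. Spred1 had 2.52 FPKM in molar and 3.33 FPKM in incisor, Spred2 had 1.56 FPKM in molar and 1.32 FPKM in incisor, and Spred3 had 0.247 FPKM in molar and 0.0375 FPKM in incisor. The sign of the Spred2 difference turned under both rescalings named for Fgfr1. Etv5, an ETS factor that FGF signalling induces, had 4.54 FPKM in molar and 5.63 FPKM in incisor, with 32.05% of its transcript words of 32 bases also in the gene Gm4798. Its relative Etv4 had 0.437 FPKM in molar and 1.17 FPKM in incisor. Of the 14 receptor, inhibitor and ETS genes, 0 were called in either direction by the test behind the authors' deposited table, whose tool is not named in the sources used here, and at an unadjusted p under 0.05 the counts were 0 toward molar and 2 toward incisor, beside 17.9% and 9.06% of all tested genes.

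**Figure D3:**
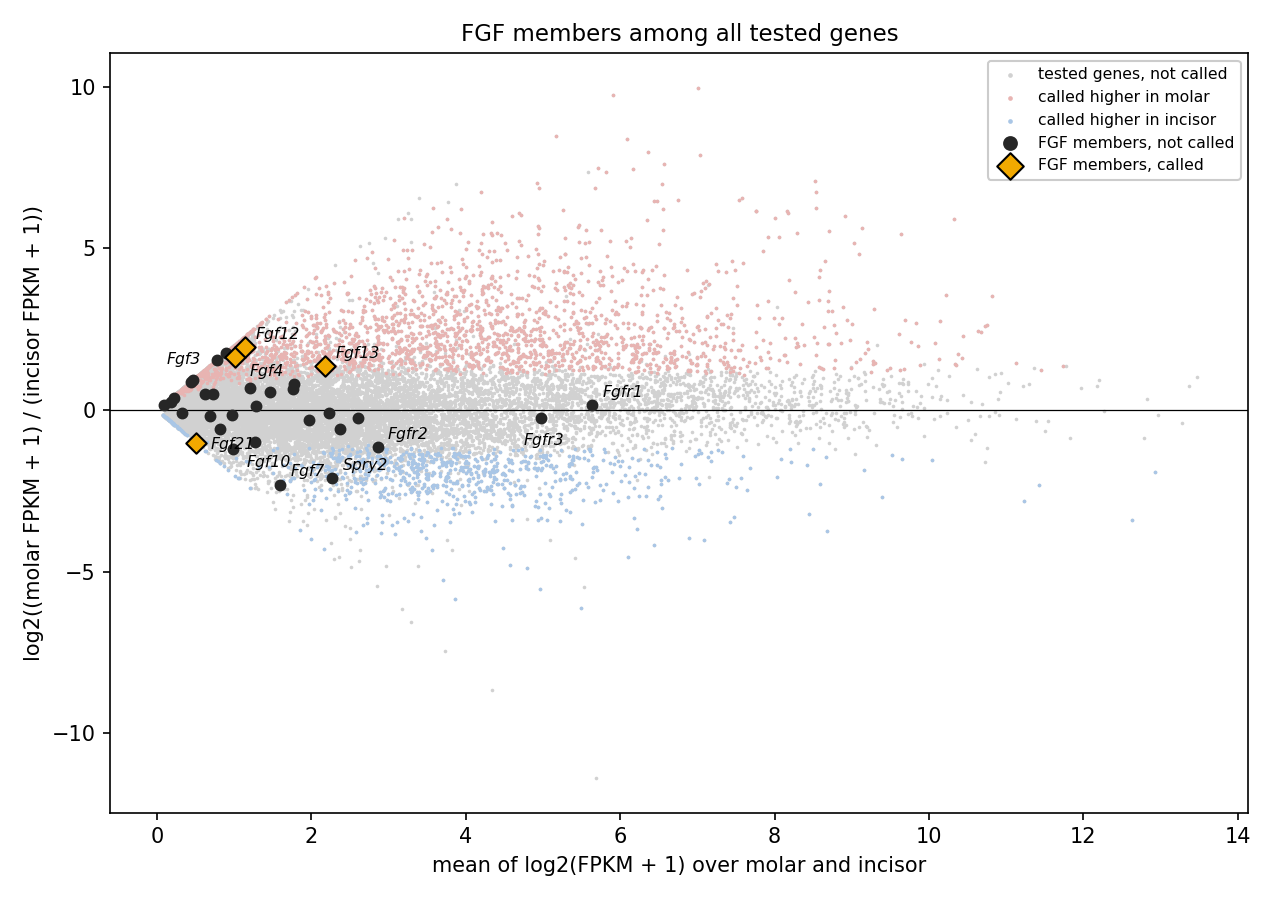
Each point is a gene tested by the authors, with the mean of log2(FPKM + 1) over both tissues on the x axis and log2((molar FPKM + 1) / (incisor FPKM + 1)) on the y axis; the 33 tested FGF genes are dark dots, or yellow diamonds for the 4 called ones. Most FGF genes lie at the low end of expression, the 3 genes called higher in molar above 0 and Fgf21 below it, with Fgfr1 and Fgfr3 close to 0 further right.

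Proteoglycans carry FGFs to their receptors. Of 20 heparan sulfate proteoglycans and their enzymes, 4 were called higher in incisor, against 4.28% of all tested genes, and 1 was called higher in molar, against 11.9%. The syndecan Sdc4, a membrane proteoglycan, had 159 FPKM in molar and 458 FPKM in incisor (q = 0.0154 in the authors' deposited table), and Sdc2 had 21.3 FPKM in molar and 72.5 FPKM in incisor (q = 0.00124). The glypican Gpc1, anchored to the outer membrane by a lipid, had 3.61 FPKM in molar and 21.2 FPKM in incisor (q = 0.0150 in the authors' deposited table). Sulf1, which trims sulfate groups from heparan sulfate outside the cell, had 9.10 FPKM in molar and 38.3 FPKM in incisor (q = 0.00326 in the authors' deposited table). Hs3st1, a sulfotransferase, had 4.04 FPKM in molar and 0.611 FPKM in incisor (q = 0.0274 in the authors' deposited table). The list median was -0.20 over 20 genes, beside 0.14 over all tested genes. With median centring it was -0.43, beside -0.08, and with equal totals -0.69, beside -0.32. Many growth factors besides FGFs bind these proteins. This list and the other pathway lists were chosen with earlier results of these data known, so their counts and medians are descriptions only.

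Among 7 co-receptors and carriers, 1 was called in each direction, beside 11.9% and 4.28% of all tested genes. Flrt3, a membrane protein that binds FGF receptors, had 16.1 FPKM in molar and 58.0 FPKM in incisor (q = 0.00375 in the authors' deposited table). Kl, the co-receptor of Fgf23, had 0.926 FPKM in molar and a listed 0 in incisor (q = 0.000664 in the authors' deposited table), a molar value below the 99th percentile of the chemoreceptor genes. Klb, the co-receptor of Fgf21 and Fgf15, had 0.314 FPKM in molar and 0.183 FPKM in incisor and was not called. Over the 4 genes of this list at 1 FPKM or more in either tissue the median ratio was -1.40, beside 0.14 over all tested genes. With median centring it was -1.62, beside -0.08, and with equal totals -1.72, beside -0.32.

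In the relay from receptor to MAP kinase, 1 of 20 genes was called toward molar and 2 toward incisor, where all tested genes had 11.9% and 4.28%. Mapk3, which encodes the kinase ERK1, had 118 FPKM in molar and 42.0 FPKM in incisor (q = 0.0180 in the authors' deposited table). The kinase gene Braf had 1.58 FPKM in molar and 9.75 FPKM in incisor (q = 0.000664 in the authors' deposited table), and the GTPase gene Nras had 18.4 FPKM in molar and 52.1 FPKM in incisor (q = 0.0110). The other 17 genes of the relay, among them the adaptors Frs2 and Grb2, were not called. The list median was -0.27 over 19 genes, -0.50 with median centring and -0.76 with equal totals. Over all tested genes these were 0.14, -0.08 and -0.32.

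Of 11 other inhibitors of the route, 1 was called toward molar and 0 toward incisor, with 2 and 0 at an unadjusted p under 0.05. The called gene was Pebp1, a binding protein of RAF kinases, with 281 FPKM in molar and 33.8 FPKM in incisor (q = 0.000664 in the authors' deposited table). Dusp6, an ERK phosphatase that FGF signalling induces, had 13.7 FPKM in molar and 9.65 FPKM in incisor and was not called. Of 8 other transcription targets, 3 were called toward molar and 0 toward incisor, with 3 and 1 at an unadjusted p under 0.05. The shares of all tested genes beside both lists are 11.9% and 4.28% for calls, and 17.9% and 9.06% at the unadjusted p. The called targets were Fos (1008 FPKM in molar and 194 FPKM in incisor), Ier2 (207 FPKM in molar and 13.3 FPKM in incisor) and Phlda1 (19.0 FPKM in molar and 5.08 FPKM in incisor). Fos and Ier2 are immediate-early genes, which many stimuli besides FGFs induce. The median ratio over the 8 targets was 0.68, with 0.46 after median centring and 0.25 with equal totals. Over 10 of the other inhibitors it was 0.02, and it turned to -0.20 with median centring and -0.41 with equal totals. All tested genes had 0.14, -0.08 and -0.32 at these settings. The ETS gene Etv1, the closest relative of Etv4 and Etv5 on the list, had 2.56 FPKM in molar and 4.31 FPKM in incisor and was not called.

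**Figure D4:**
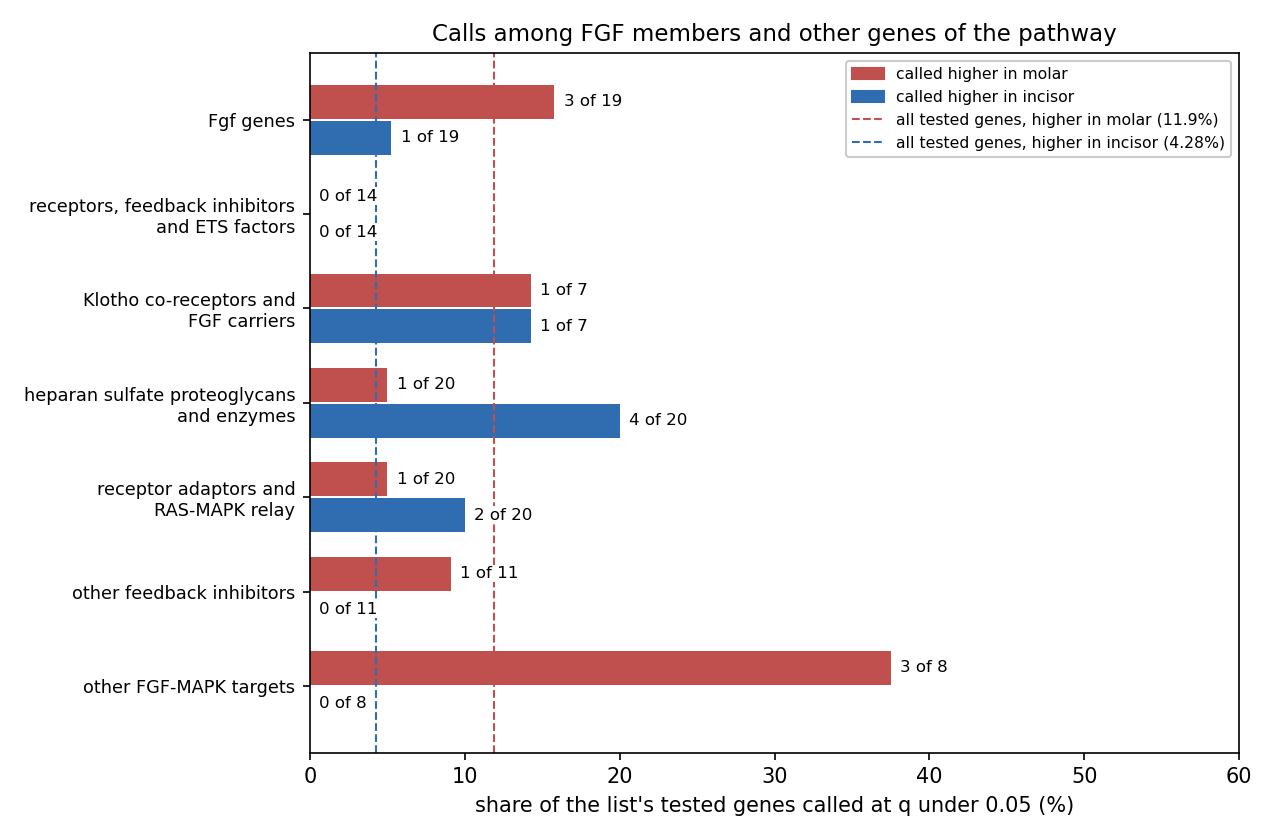
Share of the tested genes of each list with q under 0.05 and the higher level in molar (red, upper bar) or in incisor (blue, lower bar), with counts beside the bars and dashed lines at the shares among all tested genes, 11.9% and 4.28%. No receptor, inhibitor or ETS gene among the FGF members is called, and the heparan sulfate list has 4 of 20 genes called higher in incisor. The lists were chosen with earlier results of these data known.

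Markers of several cell types also differed between the tissues. The shares of all tested genes beside the counts below are 11.9% toward molar and 4.28% toward incisor for calls. At an unadjusted p under 0.05 they are 17.9% and 9.06%. The 12 mural markers were all above 0 in both tissues and summed to 335 FPKM in molar and 840 FPKM in incisor. Most of the incisor sum was Rgs5 (127 FPKM in molar and 537 FPKM in incisor). Calls among them went both ways, 3 toward incisor (Rgs5, Pdgfrb and Tagln) and 2 toward molar. These 2 were Kcnj8 (108 FPKM in molar and 16.0 FPKM in incisor) and Des (3.17 FPKM in molar and 0.155 FPKM in incisor). The 16 markers of dental epithelium summed to 2649 FPKM in molar and 23554 FPKM in incisor, with 9 called higher in incisor and 0 in molar. Those sums were held mostly by Amelx (1937 FPKM in molar and 20642 FPKM in incisor). The 10 endothelial markers summed to 296 FPKM in molar and 21.1 FPKM in incisor, 9 of them called higher in molar, and Cldn5 was listed at 0 in incisor. The 10 macrophage markers summed to 8122 FPKM in molar and 5420 FPKM in incisor, with 3 called toward molar and 1 toward incisor. Their median ratio was 0.33, with 0.11 after median centring, and it turned to -0.26 with equal totals. All tested genes had 0.14, -0.08 and -0.32 at these settings. No marker sum given here is scaled to equal FPKM totals. The 10 fibroblast markers summed to 4415 FPKM in molar and 2570 FPKM in incisor, a sum held mostly by Lum (2779 FPKM in molar and 1551 FPKM in incisor, not called) and Dcn (1047 FPKM in molar and 367 FPKM in incisor). Calls among them went both ways, 2 toward molar (Dcn and Cxcl12) and 4 toward incisor (Pdgfra, Sfrp2, Smoc2 and Postn), and their median ratio was -0.01. The 8 odontoblast markers summed to 179 FPKM in molar and 493 FPKM in incisor, with 0 called toward molar and 2 toward incisor (1 and 3 at an unadjusted p under 0.05). The 8 glial markers summed to 64.3 FPKM in molar and 53.9 FPKM in incisor, with 2 of the 7 tested called toward molar and 0 toward incisor (2 and 2 at an unadjusted p under 0.05). Over the 6 glial markers at 1 FPKM or more in either tissue the median ratio was -1.17, on the side of incisor. The 8 genes used as markers of dental mesenchymal stem cells summed to 60.6 FPKM in molar and 111 FPKM in incisor, with Ptch1 called higher in incisor. Acta2, which is also among the 12 mural markers, held most of both sums (48.4 FPKM in molar and 78.8 FPKM in incisor, not called). In which of these cells the FGF genes were transcribed, and the part of the cell mixture in the values of Fgf4, Fgf7, Fgf10, Fgf12, Fgf13, Fgf21, Fgfr2, Spry2 and the heparan sulfate genes, was not tested.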

How the data were processed

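RNA of 4 libraries, 2 from molar and 2 from incisor pulp, had been combined by the authors into 1 value per tissue. Per the file headers, the deposited columns hold an FPKM value for each tissue, a log2 fold change (molar over incisor, no pseudocount), a test statistic (a score signed like the fold), and a p-value and q-value per gene. Trim Galore, HISAT2, edgeR and the build mm10 appear in the submitters' processing notes. The tool that wrote the table is not given in the sources used here, nor are its annotation and scaling. Tissue was tied to columns by the description labels.

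No test was run across samples, since 1 value per tissue leaves none. Calls are the authors' q under 0.05 among rows marked as tested. Starts were moved by 1 base to count from 1, after which 53.3% of 22810 symbols matched the RefSeq start on GRCm38.p6. Exon overlaps and shared words of 32 bases came from GENCODE M21. Python 3.11.15 and pandas 2.3.3 were used. Every member is named, pathway lists are named by their called genes, and the members, lists, markers and the chemoreceptor comparison were chosen with earlier results of these data known.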

Additional observations from a re-analysis of the deposited data

How the results depend on the processing

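With the authors' own mark of significance or q under 0.1, the FGF genes gave 3 calls toward molar and 1 toward incisor, as with q under 0.05. Of all tested genes 12.7% and 4.69% were called by the mark, and 14.5% and 6.31% at q under 0.1. At an unadjusted p under 0.05 the FGF genes gave 4 and 3, and all tested genes 3369 (17.9%) and 1700 (9.06%). The FGF median log2 ratio was -0.17 with a pseudocount of 0.1, -0.0489 with 5, -0.43 with a minimum of 5 FPKM, 0.15 with no minimum, -0.47 with equal FPKM totals and -0.35 with median centring. Over all tested genes, in the same order, these were 0.18, 0.08, 0.19, 0.21, -0.32 and -0.08. The cause of the sign change with no minimum was not tested. A threshold of 5 FPKM left 1 Fgf gene in molar and 1 in incisor, and the chemoreceptor percentile left 1 in molar and 11 in incisor. The tissues' FPKM totals, 815089 in molar and 539574 in incisor, stand 0.60 apart in log2, and genes above 0 in both have a median fold of 0.22. Absolute log2 folds of called genes start at 1.10. Of the 24 genes at 1 FPKM or more, Fgfr1 and Spred2 changed sign under either rescaling. No paired analysis was possible because the table holds 1 combined value per tissue, and for the same reason no library could be left out. Depth is unknown, and the molar level of chemoreceptor genes limits what a low molar value shows.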

Other observations

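Fgf3, Fgf4 and Fgf15 are neighbours on mouse chromosome 7, a locus chosen after the values were seen. The rows of Fgf3 and Fgf4 lie 18.0 kb apart, and that of Fgf15 begins 31.3 kb beyond Fgf4. Fgf3 had 1.91 FPKM in molar and 0 in incisor, and Fgf4 had 2.56 FPKM in molar and 0.139 FPKM in incisor, while Fgf15 had 0.215 FPKM in molar and 0.296 FPKM in incisor. The genes on either side were more abundant and were not called in the authors' deposited table. On the side of Fgf3, the chloride channel gene Ano1 had 4.54 FPKM in molar and 6.48 FPKM in incisor. Beyond Fgf15, Oraov1 had 11.8 FPKM in molar and 28.7 FPKM in incisor, and the cyclin gene Ccnd1 had 34.1 FPKM in molar and 29.3 FPKM in incisor.

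Fgf6 and Fgf23, 48.2 kb apart on chromosome 6, both stood under 0.13 FPKM in molar and under 0.01 FPKM in incisor.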
